A study of Mus musculus with 8 samples.

Results

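The choroid plexus genes described here are 8 genes known as markers of the choroid plexus, measured by 15 probe sets out of 22626 on arrays of mouse hippocampus. They were chosen as marker genes from a list of 10, with earlier results of these data known, above all their wide spread between mice and their shared pattern. The levels, the spread, the differences between the groups and the correlations are therefore given as a description, and nothing is supported with them. Each probe set had to be annotated to 1 of these genes alone. Ttr and Rarres2 had 3 such probe sets each, Sostdc1, Kl and Igf2 had 2 each, and Folr1, Otx2 and Aqp1 had 1 each. Clic6 and Enpp2 had none annotated to them alone and were not analysed here.

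The study set 4 male SCID mice given oral FTY720 (1 mg/kg) for 3 days against 4 given oral saline vehicle. All 8 mice carried the SCID trait, which leaves them without mature B and T lymphocytes, were 12 weeks old and went through contextual fear conditioning. The hippocampus was taken 17 hours after dosing had ended, which was 1 hour after memory consolidation was tested, and each mouse gave 1 Affymetrix 3' array (mice 1, 4, 5 and 6 with FTY720, mice 13, 14, 15 and 16 with vehicle). FTY720 (fingolimod) is a sphingosine analogue whose phosphorylated form binds sphingosine-1-phosphate receptors.

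The choroid plexus is a sheet of secretory epithelium over a core of leaky vessels. It hangs in the brain ventricles, where one of its folds lies along the hippocampus, and it makes cerebrospinal fluid. Its cells move ions and water, carry vitamins and hormones into the fluid and secrete proteins into it. Neurons and glia of the hippocampus itself express most of the genes below weakly or not at all; how much choroid plexus each dissected hippocampus held was not tested. In bulk tissue such as this, fewer cells of a type and less RNA per cell cannot be told apart.

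The arrays had medians between 6.68 and 6.72 on the log2 scale. Of the hippocampal neuron markers, 7 of the 8 measured were above the median level of all genes, and Prox1 was dim at a mean of 3.29. Vehicle 15 stood apart on the first principal component (32.3% of the variance) and vehicle 16 on the second (20.2%). Vehicle 16 also had the lowest 5' minus 3' difference of the Gapdh control probe sets, -1.46, with the other mice between -1.18 and -0.80. Vehicle 15 also had the highest levels of most of the genes below, and group differences of these genes are given without it too.

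The genes shared a pattern across mice that cut through both groups. For each of the 8 genes, at the probe set of highest mean level, FTY720 1, FTY720 5, vehicle 14 and vehicle 15 held the 4 highest values. The other FTY720 mice, 4 and 6, and vehicle 13 and 16 held the 4 lowest. Vehicle 15 was highest for 7 of the 8 genes, with Igf2 the exception, and FTY720 6 was lowest for 6. No probe set separated the groups: the values of FTY720 and vehicle mice overlapped for all 15, where 4.38% of all probe sets did not overlap.

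**Figure D1:**
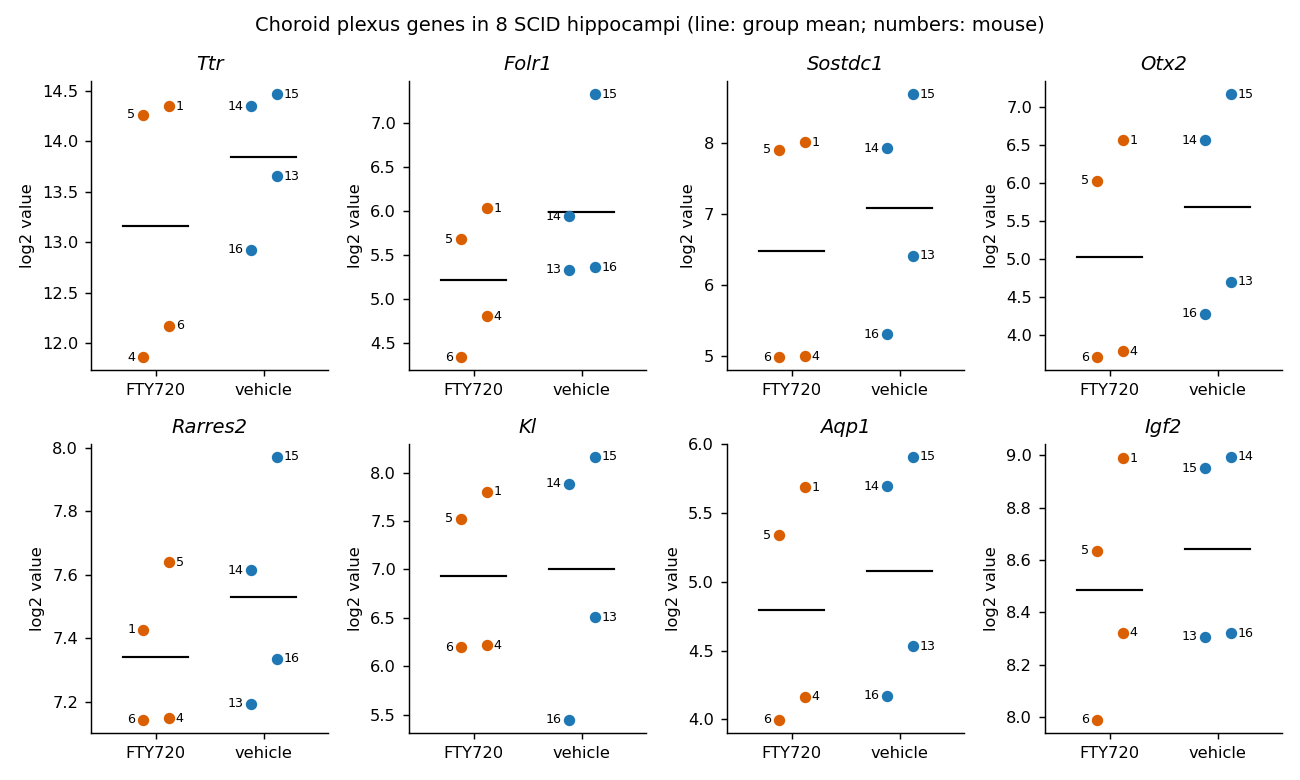
Log2 value of each gene (probe set of highest mean) in the 4 FTY720 mice, left, and the 4 vehicle mice, right, with mouse numbers beside the points and a line at each group mean; each panel has its own axis. Mice 1 and 5 with FTY720 and mice 14 and 15 with vehicle hold the 4 highest values in every panel, and the groups overlap in all 8.

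Otx2 encodes the homeodomain transcription factor that choroid plexus epithelium needs to form and to be maintained. Its log2 values were 6.56, 3.78, 6.03 and 3.71 in FTY720 mice 1, 4, 5 and 6, against 4.70, 6.56, 7.17 and 4.28 in vehicle mice 13, 14, 15 and 16. Both groups thus held high and low mice, and the highest mouse stood 11.0-fold above the lowest. The lowest of these values lay at the level of probe sets called dim below, and what part background had in this range was not tested. The group means were 5.02 ± 1.49 in FTY720 mice and 5.68 ± 1.40 in vehicle mice (SD, n = 4 each). The log2 difference of -0.66 (SE 0.80) was smaller than the spread between mice, and it ran from -1.17 without FTY720 1 to -0.16 without vehicle 15.

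Among its RefSeq promoter windows, 250 bases before to 50 after a start site in build GRCm38.p6, Otx2 has 1 that holds the letters TAATCC, searched on both strands (as TAATCC or its reverse complement GGATTA), which are the core that Otx proteins are known to bind. These sequences are shown because Otx2 encodes a transcription factor. Whether it regulates any of these genes was not tested. Windows were used for 4 of the 8 genes, Otx2, Igf2, Kl and Aqp1. Of their 10 windows 2 held the letters, against 7.06% of all 32851 windows of this length. By gene, 2 of the 4 held them, Otx2 itself and Igf2, against 8.14% of all 27025 genes with a window. Windows of the same gene do not count as independent, and the difference between these shares was not tested. Any member window on a chromosome set aside from this search was left out, while the shares over all windows and all genes kept that chromosome. The Otx2 stretch lies on the minus strand at chr14:48665110-48665359, before the start site, and that of Igf2 on the minus strand at chr7:142658777-142658806, with the letters starting at base 11 after the start site. Capitals mark the match. It is a description of the letters and not a binding site.
Otx2: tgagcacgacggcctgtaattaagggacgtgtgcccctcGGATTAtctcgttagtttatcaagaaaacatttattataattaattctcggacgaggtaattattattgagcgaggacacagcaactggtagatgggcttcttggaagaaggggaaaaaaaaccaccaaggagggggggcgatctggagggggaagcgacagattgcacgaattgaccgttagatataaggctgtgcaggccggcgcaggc
Igf2: gcctacccaagtGGATTAattatacgcttt

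Ttr encodes transthyretin, the carrier of thyroid hormone and of retinol with its binding protein, which the choroid plexus secretes into the cerebrospinal fluid. Its probe set 1451580_a_at had the largest SD over the 8 mice of all 22626 probe sets, 1.63. It read 13.87, 10.04, 13.45 and 10.42 in FTY720 mice 1, 4, 5 and 6, against 12.24, 13.74, 13.98 and 11.13 in vehicle mice 13 to 16. FTY720 1 and 5 stood with vehicle 14 and 15, vehicle 13 lay between, and the highest mouse exceeded the lowest 15.3-fold. The group means were 11.94 ± 1.99 in FTY720 mice and 12.77 ± 1.34 in vehicle mice (SD, n = 4 each). That is a fold of 0.563 for FTY720 over vehicle, with a 95% interval from 0.133 to 2.38. The log2 difference was -0.83 (SE 0.93) and rested on single mice, with -1.47 without FTY720 1, -0.19 without FTY720 4 and -0.43 without vehicle 15.

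The other probe sets of Ttr gave nearly the same order of mice (Spearman rho at least 0.994) with a narrower range. Probe set 1455913_x_at spanned 9.31-fold and 1454608_x_at spanned 6.08-fold between the highest and the lowest mouse. Of the Ttr probe sets 1454608_x_at has the highest mean, so it stands for Ttr in the correlations between genes below. Without _x_at and _s_at probe sets the median r between genes was 0.898, against 0.896 with them. The value of 1454608_x_at in vehicle 15, 14.47, was the highest of all non-control values in the table, and FTY720 1 and vehicle 14 shared the value 14.35. Between these probe sets r was 0.989 to 0.998 over the 8 mice. Differences between the groups were -0.69 (SE 0.59) for 1454608_x_at and -0.81 (SE 0.68) for 1455913_x_at, and the groups overlapped in both. Without vehicle 15 they were -0.48 and -0.53 in the same order, and without FTY720 4 they were -0.25 and -0.29.

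Folr1 encodes folate receptor alpha, through which the choroid plexus takes folate into the cerebrospinal fluid. Its values were 6.03, 4.81, 5.68 and 4.35 in FTY720 mice 1, 4, 5 and 6, against 5.34, 5.94, 7.33 and 5.37 in vehicle mice 13 to 16. Vehicle 15 was highest and FTY720 6 lowest, a 7.90-fold range, and the groups overlapped. The difference was -0.78 (SE 0.47), a fold of 0.584 with a 95% interval from 0.281 to 1.21. Without vehicle 15 it was -0.33, and without FTY720 1 it was -1.05.

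Aqp1 encodes the water channel of the apical membrane of choroid plexus cells. It read 5.69, 4.16, 5.34 and 4.00 in FTY720 mice 1, 4, 5 and 6, against 4.53, 5.70, 5.91 and 4.17 in vehicle mice 13 to 16. The order of the mice was the same as for Otx2 (Spearman rho 1 over 8 mice). The means differed by -0.28 (SE 0.47), by -0.0024 without vehicle 15 and by -0.58 without vehicle 16.

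Kl encodes klotho, the co-receptor of fibroblast growth factor 23, which choroid plexus cells also shed as a soluble protein. Probe set 1423400_at read 7.81, 6.22, 7.53 and 6.20 in FTY720 mice 1, 4, 5 and 6, against 6.51, 7.88, 8.16 and 5.45 in vehicle mice 13 to 16. Vehicle 16 was lowest here, below both low FTY720 mice, and the range covered 6.57-fold. The difference of -0.06 (SE 0.59) changed sign with the mice that were left out, with 0.32 without vehicle 15 and -0.58 without vehicle 16. The second probe set of Kl, 1451892_at, was dim, with values from 4.02 to 4.51, and spanned 1.41-fold. Its correlation with the first was 0.496 and its difference was 0.01 (SE 0.11).

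Sostdc1 encodes a secreted antagonist of bone morphogenetic protein and Wnt signals. Its probe set 1449340_at was second of all probe sets by SD over the mice, 1.53. It read 8.01, 5.00, 7.90 and 4.99 in FTY720 mice 1, 4, 5 and 6, against 6.41, 7.92, 8.68 and 5.31 in vehicle mice 13 to 16. FTY720 4 and 6 and vehicle 16 lay close together at the low end, and the highest mouse exceeded the lowest 13.0-fold. The group means were 6.47 ± 1.71 in FTY720 mice and 7.08 ± 1.51 in vehicle mice (SD, n = 4 each), a difference of -0.61 (SE 0.89), or -0.07 without vehicle 15 and -1.20 without vehicle 16. The second probe set, 1460250_at, ran in parallel (r 0.995) over a 5.65-fold range, with a difference of -0.38 (SE 0.56), or -0.02 without vehicle 15.

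Igf2 encodes insulin-like growth factor 2, which both choroid plexus and the leptomeninges make. Probe set 1448152_at read 8.99, 8.32, 8.64 and 7.99 in FTY720 mice 1, 4, 5 and 6, against 8.31, 8.99, 8.95 and 8.32 in vehicle mice 13 to 16. FTY720 1 was level with vehicle 14 and 15, and FTY720 4 with vehicle 13 and 16. The range was 2.01-fold and the difference -0.16 (SE 0.23). It was -0.06 without vehicle 15, -0.33 without FTY720 1 and 0.0061 without FTY720 6, so its sign rested on single mice. The other probe set of Igf2, 1415931_at, was dim, between 4.47 and 4.76, and spanned 1.22-fold with r -0.342 to the first.

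Rarres2 encodes chemerin, a secreted chemoattractant and adipokine that is found in choroid plexus and in ependymal cells. Probe set 1437902_s_at read 7.43, 7.15, 7.64 and 7.14 in FTY720 mice 1, 4, 5 and 6, against 7.19, 7.61, 7.97 and 7.34 in vehicle mice 13 to 16. The pattern was that of the other genes over a 1.78-fold range, the narrowest among the probe sets of highest mean of the 8 genes. Its difference was -0.19 (SE 0.17), and that of 1428538_s_at, which ran in parallel (r 0.983), was -0.32 (SE 0.19). Without vehicle 15 they were -0.04 for 1437902_s_at and -0.15 for 1428538_s_at. The dim probe set 1425091_at stayed between 3.49 and 3.92 (r 0.038 with 1437902_s_at). The IDs of the 2 brighter ones end in _s_at, a name for probe sets that can also bind other transcripts.

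**Figure D2:**
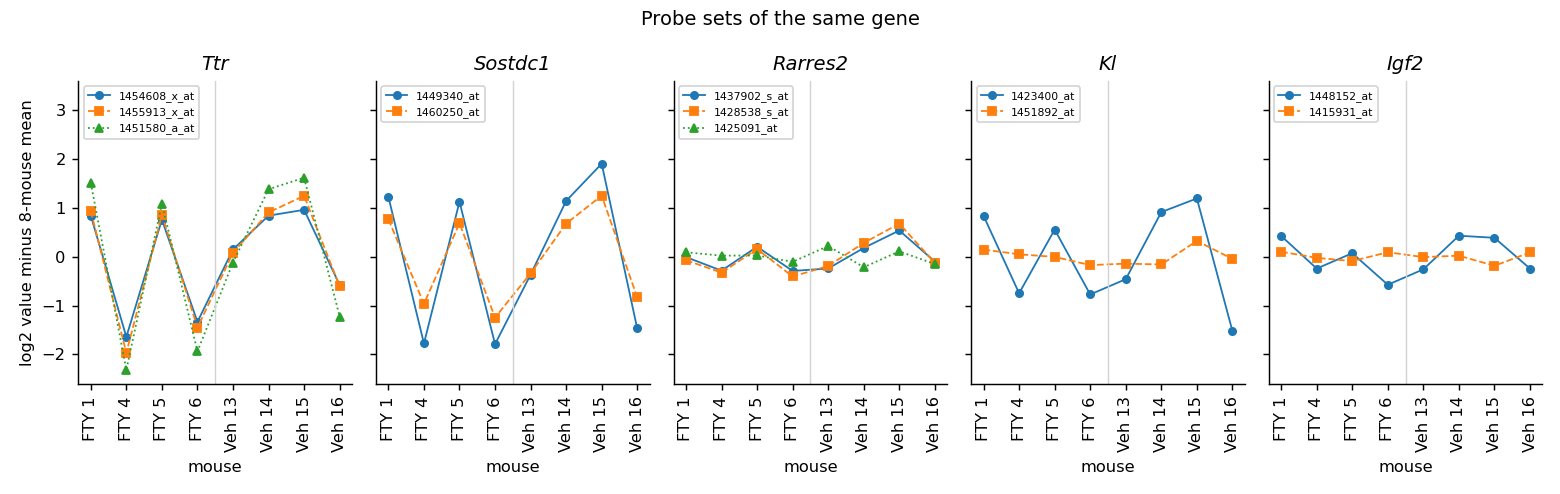
Log2 value minus the mean of the 8 mice for each probe set of the 5 genes with more than 1, FTY720 mice left of the grey line and vehicle mice right of it. The Ttr and Sostdc1 probe sets run in parallel over unequal ranges, and the dim probe sets 1425091_at, 1451892_at and 1415931_at vary less than the brighter probe sets of Rarres2, Kl and Igf2.

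The comparison of FTY720 with vehicle asks which hippocampal transcripts differ with the drug. Means were lower with FTY720 for 12 of the 15 probe sets and higher for 3, all 3 of them dim, while 45.6% of all probe sets had a lower mean. The 15 probe sets are of 8 genes that varied together across mice, so they do not count as independent observations. The median log2 difference was -0.32 over the 15 and 0.01 over all probe sets. By limma with Benjamini-Hochberg adjustment none of the 15 was under 0.05 (adjusted p from 0.785 to 0.990), nor was any of all 22626 (0%, lowest adjusted p = 0.483). None of the 15 reached 0.05 without adjustment either, the lowest limma p being 0.122. Of all probe sets 6.76% did, 2.73% lower and 4.03% higher with FTY720. The median SE was 0.47 for the 15 and 0.07 for all probe sets, and 4 mice per group limit this precision.

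The median difference depended on single mice. It was -0.06 without vehicle 15 and -0.58 without vehicle 16, and -0.32 without both, a choice made after the data were seen. The intervals were wide for most of the genes: for Otx2 the fold of FTY720 over vehicle was 0.633 with a 95% interval from 0.185 to 2.17, and for Sostdc1 1449340_at it was 0.657 with one from 0.166 to 2.59. A change of either direction and of more than 1.5-fold lies within these intervals.

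**Figure D3:**
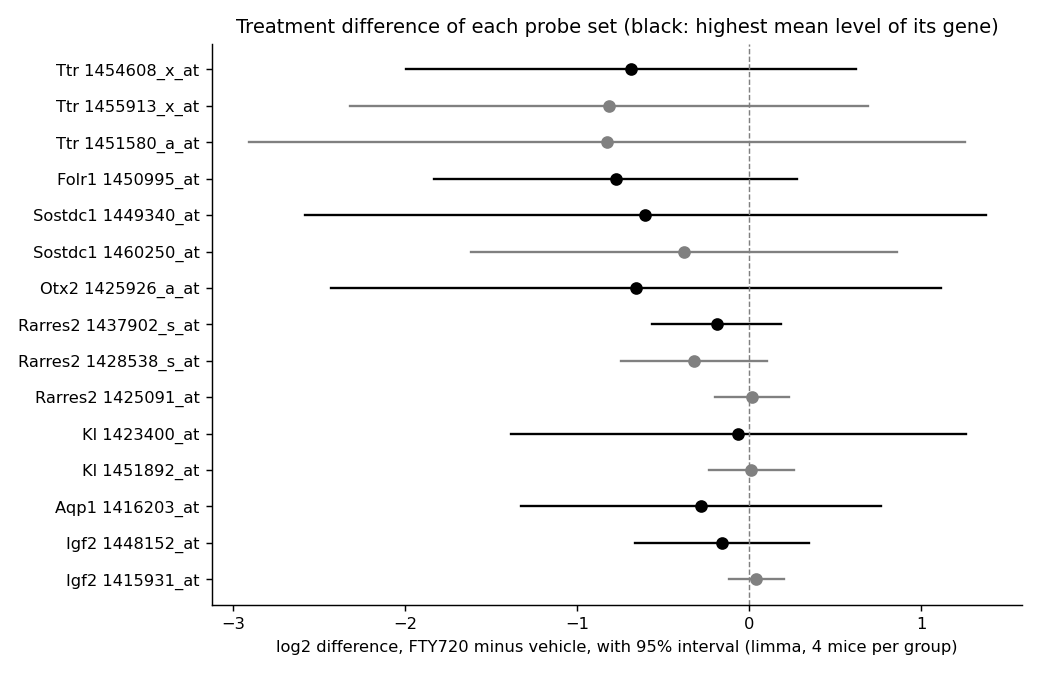
Log2 difference between FTY720 and vehicle mice for the 15 probe sets, with 95% intervals from limma (n = 4 per group); black marks the probe set of highest mean of each gene. All 15 intervals include 0, and those of Otx2, Kl 1423400_at, Ttr 1451580_a_at and Sostdc1 1449340_at reach beyond 1 in both directions.

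Treatment took up little of the variance of these genes. Between-group variance was a median of 4.91% of the total over the 15 probe sets, from 0.113% to 23.2%, against a median of 9.81% over all probe sets. The spread itself was wide. The median SD over 8 mice was 0.90 for the 15 against 0.11 for all probe sets, and 9 of the 15 lay above the 99th percentile of all. Within groups the SD of Otx2 was 1.49 in FTY720 mice and 1.40 in vehicle mice, and that of Ttr 1451580_a_at 1.99 and 1.34, so both groups held the spread. The Gapdh 5' minus 3' difference did not follow the genes closely across mice (r -0.223, rho -0.381 with their mean over 8 mice, and r -0.064 without the 2 mice farthest from the median). The score on the first principal component, on which vehicle 15 stood apart, had r 0.702 with that mean (rho 0.810, and r 0.684 without the 2 farthest mice). The component was computed over all probe sets, these 15 included, so this r is in part built in. The array median had r 0.237 with the mean of the genes (rho 0.190), and 0.83 without the 2 farthest mice. What part any of these measures had in the pattern, the Gapdh difference included, was not tested.

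Over the 8 mice the genes varied together. With 1 probe set per gene, the 28 pairs had Pearson r from 0.772 (Folr1 with Kl) to 0.994 (Otx2 with Aqp1), with a median of 0.896. Spearman rho ran from 0.738 to 1, with a median of 0.905. After the group means were subtracted the median r was 0.903, and without vehicle 15 it was 0.903. Without the 2 mice farthest from the median of the first gene of each pair it was 0.921. These values have no p because the shared pattern was known when the genes were chosen, and all of them come from the same 8 arrays.

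Otx2 followed the mean of the other 7 genes with r 0.997, Sostdc1 with 0.991 and Aqp1 with 0.990. Igf2 followed it with 0.931, Ttr with 0.926 and Kl with 0.921. Folr1 (0.882) and Rarres2 (0.880) were the loosest. The genes differed in how far they moved: per log2 unit of the other 7, Sostdc1 moved by 1.91 and Otx2 by 1.70, while Igf2 moved by 0.37 and Rarres2 by 0.26. Aqp1 at 0.88, Folr1 at 0.88, Kl at 1.05 and Ttr 1454608_x_at at 1.12 lay between. The slope depended on the probe set, since Ttr 1451580_a_at moved by 1.81 and Sostdc1 1460250_at by 1.2. Ttr 1454608_x_at holds the highest non-control value of the table, so the order of the genes by slope is that of these probe sets only. By mean level Otx2, Folr1 and Aqp1 lay above 30.6%, 34.3% and 24.7% of all probe sets. What part background had in their slopes was not tested.

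**Figure D4:**
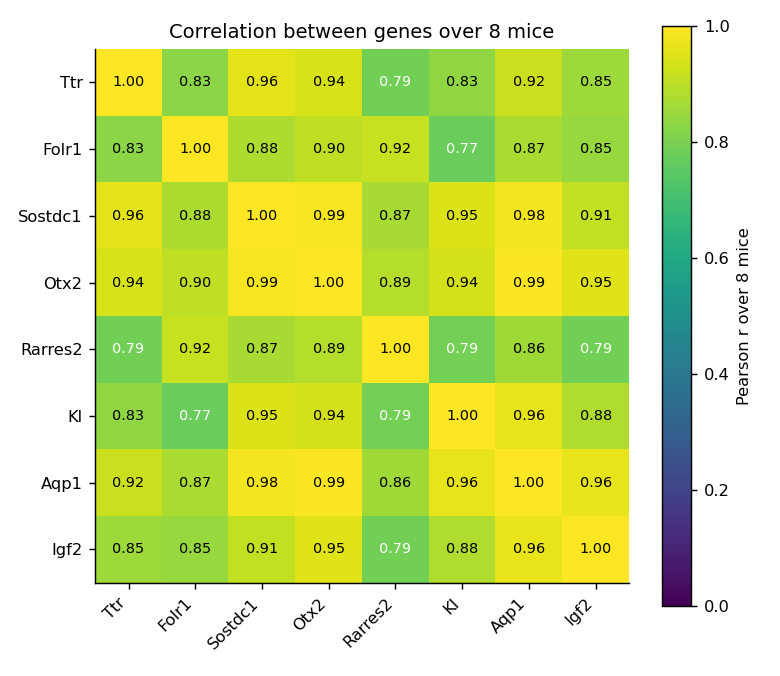
Pearson r between each pair of the 8 genes over the 8 mice, with 1 probe set per gene, on a colour scale from 0 to 1. All pairs are above 0.77, and Otx2, Sostdc1 and Aqp1 have the closest ties to each other.

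Other genes of choroid plexus epithelium, from a list of 40 of which 32 were measured, moved with them. None passed the limma test between the groups in either direction (adjusted p) and none was at an unadjusted p under 0.05, against 6.26% of all genes. Their median difference was -0.07, or 0.015 without vehicle 15, with 23 lower and 9 higher, where 46.5% of all genes had a lower mean. In FTY720 mice the list mean ran from -0.38 to 0.39 and in vehicle mice from -0.31 to 0.41, on the log2 scale relative to the mean of the 8 mice. Its correlation with the mean of the 8 genes was 0.984 (rho 0.976, r 0.981 without the 2 farthest mice and 0.983 without vehicle 15, n = 8 mice). Of the 32 genes, 19 had r above 0.8 with that mean and 5 were below 0, while 1.90% of all genes, the 8 included, had r above 0.8.

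Kcne2, a beta subunit of potassium channels, read 7.29, 4.27, 6.78 and 4.18 in FTY720 mice 1, 4, 5 and 6, against 5.26, 6.90, 7.87 and 4.30 in vehicle mice 13 to 16. This is the order and nearly the size of the pattern of Sostdc1, with r 0.994 to the mean of the 8 genes. Its difference between the groups was -0.45 (SE 0.89). The calmodulin-like gene Calml4 differed by -0.47 (SE 0.68, r 0.983), Steap1 by -0.38 (SE 0.41, r 0.974) and Slc4a5, a sodium bicarbonate cotransporter, by -0.34 (SE 0.59, r 0.981). Not every gene of the list followed. Cldn2, Ezr and Atp1b1, named after their values were seen, had SDs of 0.04 to 0.07 over the mice and r of 0.436, -0.127 and -0.404. Genes with a wider spread could also depart from the pattern. Slc29a4 had an SD of 0.30 with r 0.253 and Cldn1 an SD of 0.34 with r 0.486, both also named after their values were seen.

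Ependymal cells line the ventricles beside the choroid plexus and carry motile cilia. Of 20 ependymal genes 8 were measured, and none passed between the groups, either after adjustment or at an unadjusted p under 0.05. The median difference was -0.13, and it was 0.016 without vehicle 15. Their list mean ran from -0.34 to 0.22 in FTY720 mice and from -0.25 to 0.49 in vehicle mice, with r 0.941 to the mean of the 8 choroid plexus genes (rho 0.929, and 0.925 without vehicle 15). Rsph1, part of the radial spokes of cilia, differed by -0.30 (SE 0.29, r 0.972) and Mlf1 by -0.28 (SE 0.33, r 0.874). Tekt1, a tektin of the ciliary axoneme, differed by -0.17 (SE 0.22), and the dynein heavy chain gene Dnah11 by -0.14 (SE 0.10).

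Rarres2 was closer to the ependymal list mean, with r 0.980, than to that of the other choroid plexus genes, with r 0.840. Folr1 too was at 0.897 with ependymal and 0.863 with choroid plexus genes, but at 0.809 and 0.889 without vehicle 15. The other 6 genes ran the other way, as for Aqp1 with 0.924 for ependymal and 0.995 for choroid plexus genes and Igf2 with 0.844 and 0.959. These differences between correlations were not tested.

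Leptomeninges, the thin membranes around the brain, also express Igf2. Of the 20 genes of leptomeninges and fibroblasts, 20 were measured and none passed after adjustment. At an unadjusted p under 0.05, 2 were higher with FTY720, where 6.26% of all genes were under it in either direction. The median difference was 0.05, or -0.05 without vehicle 15. The list mean ran from -0.01 to 0.10 across FTY720 mice and from -0.33 to 0.10 across vehicle mice, with vehicle 15 alone well below the rest. It had r -0.427 (rho 0) with the mean of the 8 choroid plexus genes and 0.384 without vehicle 15, so the sign rested on that mouse. For Igf2 alone r was -0.220 with the leptomeningeal mean, or 0.643 without vehicle 15. Dcn, the proteoglycan decorin, differed by 0.90 (SE 0.18, limma adjusted p = 0.592) with r -0.163 to the 8 genes, Mgp by 0.33 (SE 0.14), Col3a1 by -0.16 (SE 0.15) and Crabp2 by 0.15 (SE 0.09).

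Markers of regions that border the ventricles were high in vehicle 15, the mouse with the highest mean of the choroid plexus genes. Thalamus and habenula genes (11 of 11 measured) had a list mean from -0.42 to -0.20 in FTY720 mice and from -0.38 to 1.24 in vehicle mice. Vehicle 14, FTY720 1 and FTY720 5, also high for the choroid plexus genes, were at 0.25, -0.23 and -0.20. With the mean of the 8 choroid plexus genes the list had r 0.710 (rho 0.881), 0.626 without vehicle 15 and 0.519 without the 2 farthest mice. Their median difference was -0.74, or -0.22 without vehicle 15. None passed after adjustment and 5 were lower at an unadjusted p under 0.05, where 6.26% of all genes were under it in either direction. Tcf7l2, a thalamic transcription factor, differed by -1.44 (SE 0.50), the troponin gene Tnnt1 by -0.98 (SE 0.34), and the transcription factor genes Zic1 by -0.91 (SE 0.64) and Gbx2 by -0.91 (SE 0.32).

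Zic1 had the closest tie of these 4, with r 0.806, or 0.801 without vehicle 15. Striatum genes (8 of 11 measured) ran from -0.34 to -0.20 in FTY720 mice and from -0.31 to 1.38 in vehicle mice. Vehicle 14, FTY720 1 and FTY720 5 were at -0.29, -0.20 and -0.27 here, and vehicle 16, low for the choroid plexus genes, was at 0.32. The r of the striatum list with the choroid plexus genes was 0.455, and -0.172 without vehicle 15. All 8 had lower means with FTY720, none at an unadjusted p under 0.05 and none after adjustment, with a median of -0.42, or -0.15 without vehicle 15 and 0.04 without vehicle 15 and 16. Penk, the enkephalin precursor, stood at -1.14 (SE 0.52), Tac1, the substance P precursor, at -0.88 (SE 0.59), the retinoic acid receptor Rarb at -0.70 (SE 0.37) and Ppp1r1b at -0.42 (SE 0.25). What part tissue from beside the hippocampus had in the choroid plexus values was not tested.

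**Figure D5:**
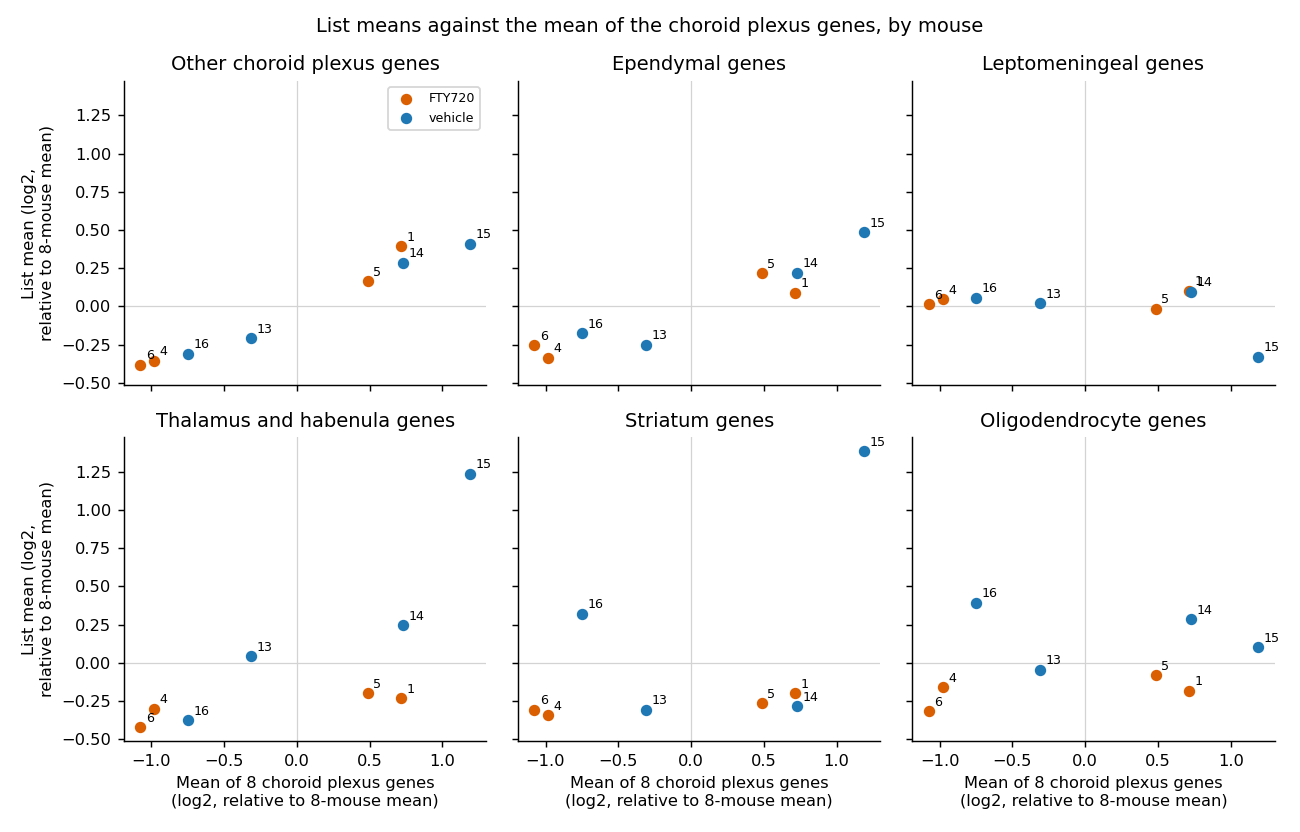
Mean of a gene list against the mean of the 8 choroid plexus genes, 1 point per mouse with its number, both as log2 values relative to the mean of the 8 mice; FTY720 in orange and vehicle in blue. The other choroid plexus and ependymal genes rise with the 8 genes, and vehicle 15 stands apart in the leptomeningeal list at -0.33, in the thalamus list at 1.24 and in the striatum list at 1.38.

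Oligodendrocyte genes had little relation to the choroid plexus genes across mice. All 9 measured of 12 had lower means with FTY720, where 46.5% of all genes did. Before adjustment 8 of these reached 0.05, against 6.26% of all genes in either direction, and none did after it. All 9 come from the same 8 arrays, so they do not count as independent observations. The median difference was -0.33, and it ran from -0.40 to -0.26 with 1 mouse left out at a time. Their list mean ran from -0.31 to -0.08 in FTY720 mice and from -0.04 to 0.39 in vehicle mice. With the 8 genes it had r 0.249 (rho 0.429), and 0.668 without vehicle 16. Mog differed by -0.54 (SE 0.12, r 0.288), Ugt8a by -0.52 (SE 0.10), Cldn11 by -0.48 (SE 0.13) and Aspa by -0.44 (SE 0.10).

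Ligands, receptors and partners of the members and of the unmeasured Enpp2, among them retinol, folate, bone morphogenetic protein, chemerin, lysophosphatidic acid and insulin-like growth factor genes, had little relation to the pattern as a list. Of 32 such genes 28 were measured, 14 higher and 14 lower with FTY720, none past the adjusted threshold, and their median difference was -0.0009. Before adjustment 1 higher and 2 lower genes reached 0.05, where 6.26% of all genes did in either direction. Bmpr2, a bone morphogenetic protein receptor, differed by 0.29 (SE 0.09), Lpar1, a receptor for the lysophosphatidic acid that the Enpp2 enzyme makes, by -0.28 (SE 0.10), the astrocyte water channel Aqp4 by -0.23 (SE 0.07) and Lpar3 by -0.18 (SE 0.10). The list mean had r 0.039 with the 8 genes (rho -0.024), and 0.538 without vehicle 15, over a range of list means from -0.06 to 0.06. Gene by gene r ran from -0.776 to 0.885, with 14 of the 28 below 0. Above 0.8 was 1 of the 28, against 1.90% of all genes.

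Among 6110 other genes above the median level, the 12 whose pattern over the 8 mice was most like the mean of the 8 genes had r from 0.943 to 0.998. Ecrg4, the precursor of the secreted peptide augurin, led them with r 0.998 and rho 1. It read 9.08, 6.56, 8.90 and 6.51 in FTY720 mice 1, 4, 5 and 6, against 7.48, 9.17, 9.75 and 6.86 in vehicle mice 13 to 16, a 3.24 range on the log2 scale. Pcolce, an enhancer of procollagen processing, followed with r 0.994 and a range of 1.29, and Gpx8, an endoplasmic reticulum peroxidase, with r 0.993 and a range of 0.82.

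The next were Ndufa7 of respiratory complex I (0.970), Cab39l (0.962), the prolyl isomerase Fkbp9 (0.962) and the collagen chain Col9a3 (0.945). Nme2 and Prdx4 followed at 0.945, Spint2, a protease inhibitor, at 0.944, and Acaa2 and Slc38a10 at 0.943. Cab39l and Spint2 also belong to the list of other choroid plexus genes. Their ranges were unequal, with 0.11 for Ndufa7 and 0.14 for Nme2 against 1.13 for Col9a3, so a high r here can go with a small shift. Without vehicle 15 the 12 kept r between 0.924 and 0.998. None of the 12 passed the limma test between the groups, and Ecrg4 differed by -0.56 (SE 0.77).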

How the data were processed

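Values were log2 summaries per probe set in the table that the authors deposited; the scale was read from the values. Per the submitters' processing notes, RMA, MAS5 and Affymetrix Expression Console were used, with neither version nor role stated, so which of them made the values is unknown. Per the labels' protocols, labelling started from 100 ng of RNA. The values were used as deposited. The 64 control probe sets were left out, and in GEO's platform annotation 20380 of the 22690 probe sets had 1 symbol, 691 several and 1555 of the non-control ones none. For lists and correlations each of 12393 genes was represented by its probe set of highest mean.

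The difference of FTY720 from vehicle was fitted over all 8 arrays without covariates by lmFit and eBayes of limma 3.58.1 (R 4.3.3), with Benjamini-Hochberg adjustment over 22626 probe sets, and the procedure was tested on simulated data. SE and 95% intervals are those of the moderated fit, and SD values are between mice. No pair of arrays was identical. Slides and scan dates were not used here, and no batch was tested. Precision is limited by the number of arrays.

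The genes and the 9 lists were chosen with earlier results of these data known. Named are all members, the 4 genes of each list with the largest absolute difference, and the 12 genes of highest r to the mean of the 8 members, among genes above the median level, passing over predicted-gene and clone names. Sequences are from RefSeq (GRCm38.p6), with windows matched by symbol for 4 of the 8 members. Alternatives covered quantile normalization, centring on array medians, a filter on level, eBayes with trend and robust options, 1 probe set per gene, no _x_at or _s_at probe sets, each mouse left out and, added after the data were seen, vehicle 15 and 16 left out together.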

Additional observations from a re-analysis of the deposited data

How the results depend on the processing

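No member probe set that an alternative kept passed an adjusted p of 0.05 under any of the 15 alternatives, nor did any of all probe sets or list genes, and the lowest adjusted p of a member was 0.608. The filter on level and the use of 1 probe set per gene each kept 8 of the 15, and leaving out _x_at and _s_at kept 11. The filter on level left too few ependymal genes for a list value. With 1 mouse left out at a time, the median difference of the 15 ran from -0.58 to -0.06, the median SD over mice from 0.75 to 0.97 and the median r between genes from 0.882 to 0.916. Across the other alternatives the median difference ran from -0.46, with the filter on level, to -0.28, without _x_at and _s_at probe sets. The sign of the difference changed for 5 probe sets when a mouse was left out: Kl 1423400_at ran from -0.58 to 0.32, Kl 1451892_at from -0.040 to 0.12, Igf2 1448152_at from -0.33 to 0.0061, Igf2 1415931_at from -0.013 to 0.078 and Rarres2 1425091_at from -0.052 to 0.093. Centred on array medians, Kl 1451892_at stood at -0.0010. The cause was not tested. No paired analysis was possible because the groups share no replicate number. No detection calls are in the table, so how many dim probe sets lie above background is not known here.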

Other observations

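Endothelial genes, of which 9 of 10 were measured, had a median SD of 0.12 over the 8 mice, against 0.10 for all genes. Their list mean ran from -0.12 to 0.03 in FTY720 mice and from -0.11 to 0.16 in vehicle mice, with a median difference of -0.06, or -0.10 without vehicle 15. With the 8 choroid plexus genes the list had r 0.233 (rho 0.333), and 0.703 without vehicle 15. Tek, an angiopoietin receptor, differed by -0.21 (SE 0.11), the tight junction gene Cldn5 by -0.21 (SE 0.09), Pecam1 by 0.12 (SE 0.10) and Esam by 0.08 (SE 0.07). Of the 9, 1, Cldn5, was at an unadjusted limma p under 0.05, where 6.26% of all genes were in either direction.

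Hippocampal neuron markers, 8 of 12 measured, had a median difference of 0.10, or 0.0092 without vehicle 15. Of the 8, 1, Prox1, was at an unadjusted limma p under 0.05, where 6.26% of all genes were in either direction. The list mean ran from -0.10 to 0.23 in FTY720 mice and from -0.33 to 0.24 in vehicle mice, with the lowest value in vehicle 15. Its r with the 8 choroid plexus genes was -0.259 (rho -0.167), and 0.150 without vehicle 15. Pou3f1 differed by 0.39 (SE 0.19), Lct by -0.27 (SE 0.25), Neurod1 by 0.21 (SE 0.11) and Prox1 by 0.18 (SE 0.08). None passed after adjustment in either list.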
